A study of Homo sapiens with 4 samples.

Results

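HuR was profiled by RNA immunoprecipitation sequencing (RIP-seq) in MDA-MB-231 cells, an established human triple-negative breast cancer line, and the peaks placed in the last intron of a transcript are described here. A peak was taken as a member when the deposited annotation placed its centre in intron k of n with k equal to n and n larger than 1, and its host gene was the gene of the RefSeq transcript named there. There were 446 such peaks among 14149 in the list, or 3.15% (Wilson 95% interval 2.88 to 3.45), and among 8756 intron peaks they made up 5.09% (4.65 to 5.57). They lay in 396 of the 3313 host genes of the list, or 11.95% (10.9 to 13.1), and 3 further peaks lay on transcripts that could not be matched to a gene name. RNA bound in lysate was pulled down with a mouse antibody against HuR in 2 samples and with mouse IgG, as the control, in 2 samples, all from the one line, with no treatment given in the labels. The deposited list has 1 row per peak, every peak is 347 bp long, and no value belongs to a single sample. No difference between HuR and IgG could therefore be tested, the values below carry no replicate error, and library depth cannot be read from it. Intervals cover counting error over peaks or introns, which are not replicates of a condition, and no p-value is given. As a check of the line, 2 of 8 mesenchymal and basal marker genes had a peak, CD44 with 13 and AXL with 21, and 0 of 8 luminal marker genes had one; vimentin, the defining mesenchymal marker, had none in this selected list.

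HuR, the product of ELAVL1, is a mostly nuclear RNA-binding protein that shuttles to the cytoplasm and binds U-rich and AU-rich stretches in pre-mRNA introns and in 3′ untranslated regions (UTRs). The last intron of a gene separates the penultimate exon from the last exon, which in most protein-coding genes ends the coding sequence and carries the 3′ UTR. Removal of this intron is known to be coupled to 3′-end formation.

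The hg38 sequence under 7 of the peaks is shown to make the positions concrete, 3 beside the penultimate exon and 4 beside the last exon. These examples were picked by hand and not by a rule, and they do not mirror the share of peaks at each exon. Each line gives the intronic bases of the peak window, 5′ to 3′ on the strand of the gene, and capitals mark TTTTT and ATTTA. The first 3 open with the gt of the 5′ splice site, directly after the penultimate exon, and are those of ANKRD1 (chr10:90915365-90915542, minus strand), PCBP2 (chr12:53471808-53472078, plus strand) and ELAVL1 (chr19:7967359-7967564, minus strand).
ANKRD1: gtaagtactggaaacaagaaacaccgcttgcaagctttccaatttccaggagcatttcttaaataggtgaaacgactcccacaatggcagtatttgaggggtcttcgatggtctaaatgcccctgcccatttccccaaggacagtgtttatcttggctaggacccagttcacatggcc
PCBP2: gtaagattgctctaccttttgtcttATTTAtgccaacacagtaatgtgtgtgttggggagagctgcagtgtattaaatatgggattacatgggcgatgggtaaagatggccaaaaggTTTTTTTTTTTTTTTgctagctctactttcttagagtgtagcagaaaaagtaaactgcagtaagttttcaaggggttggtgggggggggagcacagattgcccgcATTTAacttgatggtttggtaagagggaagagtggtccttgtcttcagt
ELAVL1: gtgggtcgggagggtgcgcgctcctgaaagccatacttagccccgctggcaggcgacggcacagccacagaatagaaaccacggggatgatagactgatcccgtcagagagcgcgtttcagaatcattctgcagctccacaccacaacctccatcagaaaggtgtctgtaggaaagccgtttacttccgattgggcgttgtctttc
The other 4 close with the ag of the 3′ splice site, directly before the last exon, and are those of CD44 (chr11:35228950-35229128, plus strand), SFPQ (chr1:35184594-35184772, minus strand), CBFB (chr16:67098533-67098709, plus strand) and LAPTM4A (chr2:20033280-20033453, minus strand).
CD44: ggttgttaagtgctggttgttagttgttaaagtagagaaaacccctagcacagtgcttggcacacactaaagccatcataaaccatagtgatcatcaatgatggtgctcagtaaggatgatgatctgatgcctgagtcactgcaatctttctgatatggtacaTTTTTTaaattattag
SFPQ: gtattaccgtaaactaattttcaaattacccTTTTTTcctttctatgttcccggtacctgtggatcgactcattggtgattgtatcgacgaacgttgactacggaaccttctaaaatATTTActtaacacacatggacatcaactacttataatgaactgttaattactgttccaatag
CBFB: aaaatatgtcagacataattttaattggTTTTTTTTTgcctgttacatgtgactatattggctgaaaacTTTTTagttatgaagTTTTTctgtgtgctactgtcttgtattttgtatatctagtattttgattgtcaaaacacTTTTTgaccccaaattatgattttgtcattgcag
LAPTM4A: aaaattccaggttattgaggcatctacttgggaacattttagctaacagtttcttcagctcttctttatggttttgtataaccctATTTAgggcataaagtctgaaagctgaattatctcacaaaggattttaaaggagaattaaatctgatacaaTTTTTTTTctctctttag
The stretches from ANKRD1 and ELAVL1 held no run of 5 T and no ATTTA, and T made up 25.8% and 20.4% of their bases. PCBP2 held 1 run of 15 T and 2 ATTTA. CBFB held 4 runs of 5 or more T, the longest of 9, and 46.3% of its bases were T.

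Nearly all last-intron peaks lay at the edge of the intron, and most of them at the penultimate exon. Of the 446 peaks, 432 could be placed in a GENCODE transcript of the host gene in which the same intron is the last, called the matched transcript here. In 397 of these 432, or 91.9% (88.9 to 94.1), the peak centre was within 1 peak length of an exon. Only 7.69% of the bases of the same 394 introns, whose median length at the peaks was 5045 bp, lie as close. The centre was nearest the penultimate exon in 327 of 432 peaks, or 75.7% (71.4 to 79.5), and nearest the last exon in 105. The share nearest the exon before the intron was 55.3% (54.1 to 56.4) of 7296 internal-intron peaks and 48.5% (45.2 to 51.8) of 858 first-intron peaks, and neither interval reached that of the last introns.

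The strand of a peak went with its side. Of the 327 peaks nearest the penultimate exon, 315 lay on the strand of the gene, and of the 105 nearest the last exon, 98 lay on the opposite strand. In 413 of 432 last-intron peaks, or 95.6% (93.2 to 97.2), the nearest exon thus lay behind the peak when read along the peak's own strand, beside 98.3% (97.9 to 98.5) of internal-intron and 93.7% (91.9 to 95.1) of first-intron peaks. Measured against the canonical transcript of each host gene and over the peaks within 1 peak length of an exon, it was 395 of 396. As most last-intron peaks lay at the penultimate exon, 322 of 432, or 74.5% (70.2 to 78.4), were on the strand of the gene, against 55.1% (54.0 to 56.3) in internal and 51.0% (47.7 to 54.4) in first introns. The TruSeq RNA v2 kit named in the labels does not mark the strand of the RNA, so the strand given for a peak is no evidence of transcription from that strand, and reads of a gene and of an antisense partner cannot be told apart.

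The distance from the exon also differed by side. Peaks nearest the penultimate exon were centred a median of 101 bp into the intron (quartiles 62 and 141), close to the medians of 106 and 98 bp at the upstream and downstream sides of internal introns. Peaks nearest the last exon were centred a median of 7 bp from it (quartiles 3 and 40). Of these 105 peaks, 63 had their centre within 10 bp of the last exon, against 22 of the 327 at the penultimate exon and 213 of the 3264 internal-intron peaks nearest the downstream exon. Among internal introns followed by an exon longer than 1 peak length there were only 9 peaks nearest that exon, and 5 of them were within 10 bp.

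**Figure D1:**
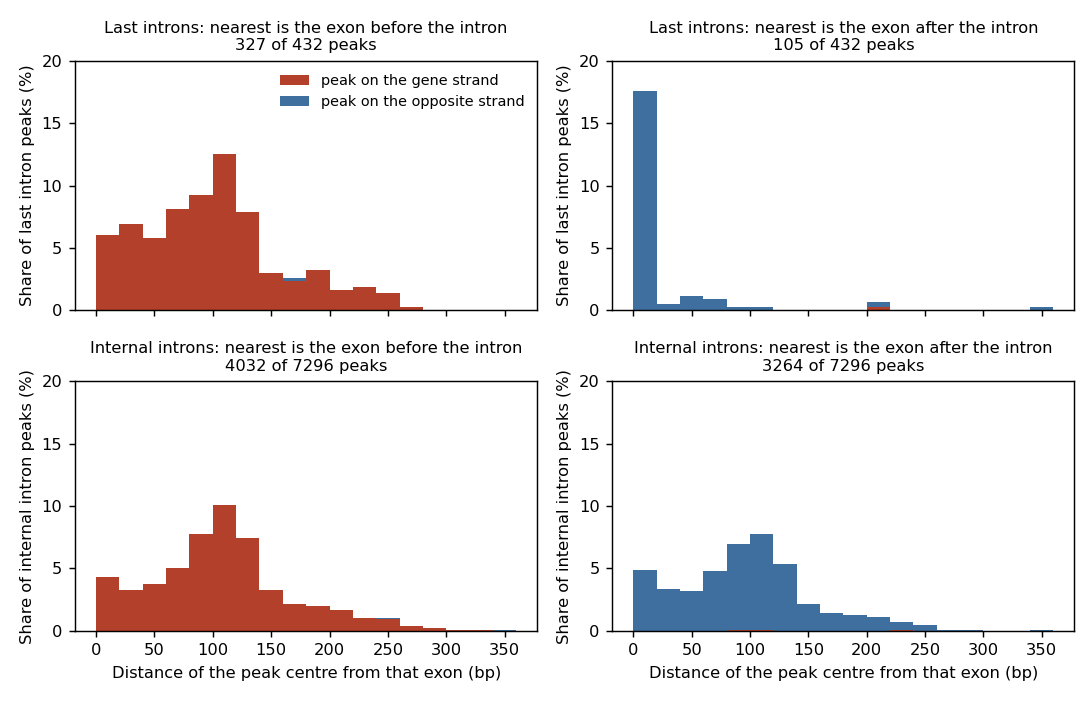
Distance in bp between a peak's centre and the nearest exon of the matched transcript, as a share in percent of all placed peaks of the class in bins of 20 bp, split by which exon is nearest and by the strand of the peak. Last-intron peaks were spread around 101 bp beside the penultimate exon but crowded within 10 bp of the last exon, while internal introns looked alike on both sides; 35 last-intron and 209 internal-intron peaks lay beyond 360 bp and are not drawn.

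Exon length moved with the side as well. The penultimate exon had a median length of 135 bp at these peaks and the last exon one of 2143.5 bp, against 127 and 128 bp around internal introns. The share of last-intron peaks nearest the penultimate exon was 62.9% (46.3 to 76.8) of 35 peaks where the last exon was at most 1 peak length long and 83.3% (76.6 to 88.4) of 150 peaks where it was over 3000 bp, and these intervals overlapped slightly. In internal introns the share nearest the exon before was 54.8% (53.7 to 56.0) of 7207 peaks where the next exon was at most 1 peak length long, and 89.9% (81.9 to 94.6) of 89 peaks where it was longer. Last exons over 1 peak length had 76.8% (72.4 to 80.7) of 397 peaks on the penultimate side. These lengths are those annotated in the matched transcript. In some of the shortest last exons nearly all bases were coding, 202 of 205 in CD44 and 126 of 129 in MYBL1. Both genes also had 3′ UTR peaks, so such last exons may be longer than annotated. The part of exon length in the side of the peaks was not tested.

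**Figure D2:**
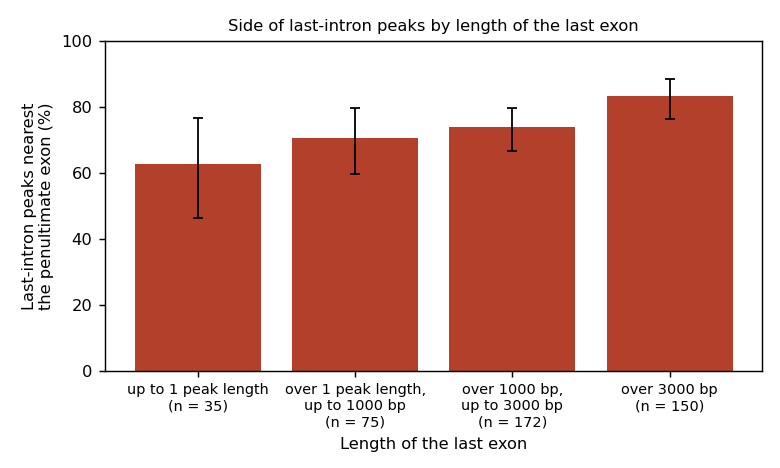
Share in percent of last-intron peaks whose centre was nearest the penultimate exon, in 4 classes of the length of the last exon as annotated in the matched transcript, with Wilson 95% intervals as error bars. The share ran from 62.9% for the shortest class to 83.3% for the longest, with wide intervals for the 35 peaks of the shortest class.

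As drawn in the list, 264 of 432 peaks (61.1%, 56.4 to 65.6) touched the penultimate exon and not the last exon by at least 1 bp. A further 85 (19.7%, 16.2 to 23.7) touched only the last exon, 5 touched both exons and 78 (18.1%, 14.7 to 22.0) touched neither. The matched transcript was protein-coding for 409 peaks. In 383 of these the last exon still held coding bases, and in 26 it was wholly untranslated. How tags were shifted before peaks were placed is not given in the sources used here, and the label of a last-intron peak depends on it. With every peak moved 173 bp back against its strand, 79 of 432 centres (18.3%, 14.9 to 22.2) would stay in the intron, 218 (50.5%, 45.8 to 55.2) would lie in the penultimate exon, 85 in the last exon and 50 beyond the exon. In coding sequence of the matched transcript there would be 233 (53.9%, 49.2 to 58.6).

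Around 212 of 432 last-intron peaks (49.1%, 44.4 to 53.8) there was a peak of the opposite strand within 1000 bp, and in 206 of the 212 it lay behind the last-intron peak. Such partners were not counted for internal or first introns, so this share is not shown to be particular to last introns. Partners included 19 last-intron peaks at the penultimate exon and 9 at the last exon, so a pair can be counted from both sides. Beside the penultimate exon the 160 such partners lay at a median offset of 343.5 bp, and 114 of them were annotated to an internal intron. Beside the last exon the 52 partners lay at a median offset of 363.5 bp, and 35 of them were annotated to the 3′ UTR. Scores of the partners were close: the median log2 ratio of the last-intron peak over its partner was 0.18 (quartiles -0.12 and 0.46) at the penultimate exon and -0.02 (-0.11 and 0.19) at the last exon. In CD44 the last-intron peak beside the last exon scored 769.6 and its partner, 349 bp away and annotated to the 3′ UTR, scored 762.5. The matched CD44 last exon of 205 bp held 202 coding bases, so that 3′ UTR annotation comes from another isoform.

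Last introns held a peak less often than introns at any other place. In the canonical transcripts of 3061 host genes with at least 2 introns, 377 last introns held a peak, or 12.3% (11.2 to 13.5). The share was 17.6% (16.3 to 19.0) of introns 1 before the last, 23.1% (21.5 to 24.7) of those 2 before and 22.8% (21.2 to 24.4) of those 3 before, 22.4% (20.9 to 23.9) of first introns and 16.3% (15.9 to 16.8) of the 24016 introns between the first and the last 5. Median intron length was 2116 bp for last introns and 2022 bp for those 2 before, and peaks per megabase of intron numbered 24.6 in last introns, 37.3 in those 1 before, 53.1 in those 2 before and 35.7 in those further upstream. First introns, with a median length of 8376 bp, had the fewest per megabase at 13.4, so by density last introns were not the lowest. The share of peaks nearest the exon before the intron rose over the same places, from 55.5% (51.8 to 59.1) at 3 before the last to 58.5% (55.0 to 61.9), 66.1% (62.3 to 69.8) and then 76.5% (72.2 to 80.3) in the last intron. All these genes are in the list because they have at least 1 peak, so the shares do not apply to genes at large.

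**Figure D3:**
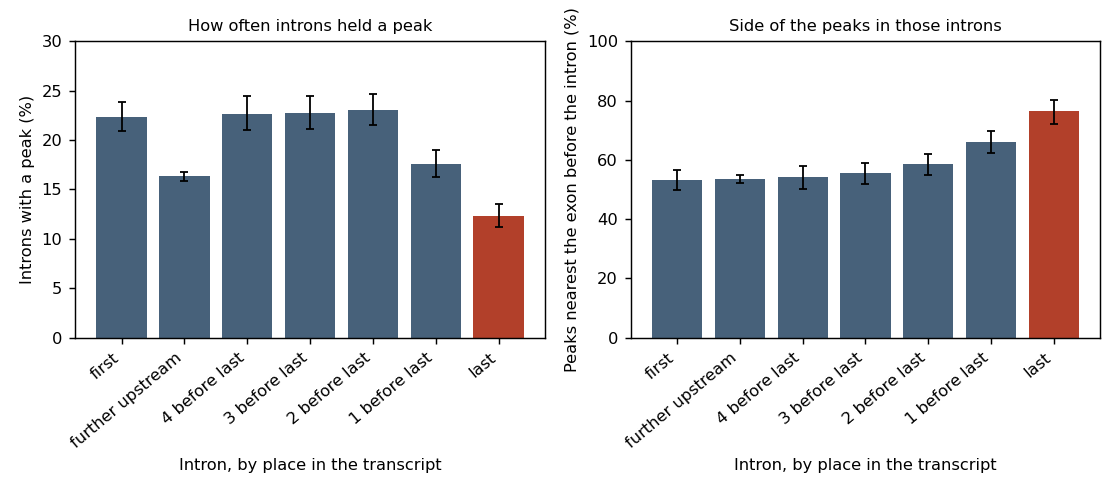
Left, percent of introns with at least 1 peak, and right, percent of their peaks nearest the exon before the intron, by the intron's place in the canonical transcript of 3061 host genes; error bars are Wilson 95% intervals and last introns are in red. Last introns had the lowest share with a peak, 12.3%, and the highest share of peaks at the upstream side, 76.5%.

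The peak score, HOMER's own value with no scale stated by the authors, was somewhat higher in last introns than in other introns. Its median was 34.4 (95% interval of the median 30.1 to 39.2, quartiles 16.9 and 93.6), against 27.9 (27.2 to 28.9) in internal introns and 31.7 (28.9 to 35.7) in first introns, and 65.5 in 3′ UTRs. The interval lay above that of the internal introns and overlapped that of the first introns. Scores ran from 8.81 to 3188.9, and 142 last-intron peaks (31.8%) were below 20 while 19 reached 500. Within the 283 host genes that had peaks of both kinds, the last-intron score was higher than the internal-intron median in 196 and lower in 83, with a median log2 ratio of 0.30 (quartiles -0.06 and 0.72). Against the 3′ UTR of the same gene it was lower in 156 of 194 genes, with a median log2 ratio of -0.53 (-1.07 and -0.10). Over the whole list, 100% of the 11121 scores under 100 fell within 0.06 of whole steps of 0.2447, where 47.2% would by chance. This puts the last-intron median at 141 steps and the lowest last-intron score at 36. Whether 1 step is 1 read is not stated.

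**Figure D4:**
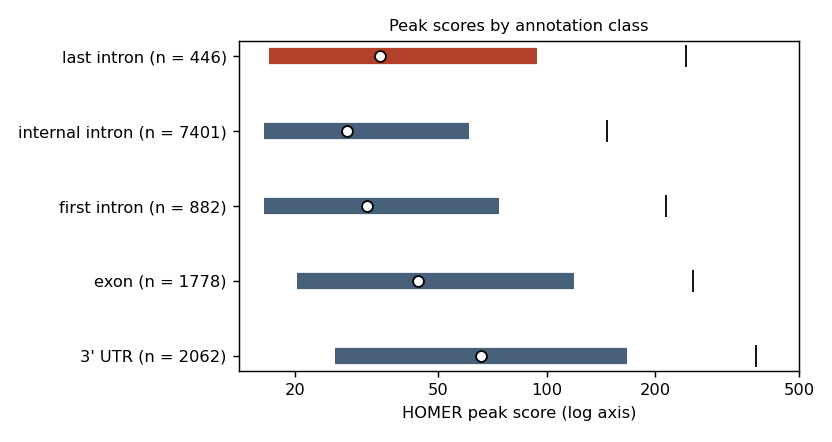
HOMER peak score on a log axis for 5 annotation classes; bars span the quartiles, circles are medians and ticks mark the 90th percentile over peaks. The last-intron median of 34.4 sat above that of internal introns, 27.9, and below that of 3′ UTRs, 65.5.

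The higher scores were close to the exons. The 105 peaks nearest the last exon had a median score of 58.2 (quartiles 23.5 and 122.4) and the 327 nearest the penultimate exon one of 31.1 (16.3 and 76.5). Split by distance, the 63 peaks within 10 bp of the last exon had a median of 93.7 (44.3 and 207.8) and the 22 within 10 bp of the penultimate exon had one of 95.5 (22.2 and 410.2). Beyond 10 bp the medians were 24.8 for 42 peaks and 30.1 for 305 peaks. Within 10 bp the medians of the sides were thus close, beyond 10 bp they were in the other order, and the last-exon side held more of the close peaks. These distance classes are coarse, and the one over 10 bp has no upper limit, so distance was not matched between the sides. The part of distance in the score difference was not tested, and the ratios that follow are not split by distance. Within host genes the median log2 ratio over the internal introns was 0.90 (0.32 and 1.28) for peaks nearest the last exon, higher in 61 of 69 genes, and 0.19 (-0.14 and 0.56) for those nearest the penultimate exon, higher in 144 of 228.

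The 12 host genes with the highest last-intron peak ranged in score from 662.7 to 3188.9 and differ in what they encode. CANX, the calnexin chaperone of the endoplasmic reticulum (ER), had the highest at 3188.9, on chr5:179728403-179728749, 15 bp from its last exon of 3051 bp; the centre lay on an exon of another CANX transcript, as it did for 76 of the 434 last-intron peaks compared with all transcripts of their host (17.5%, 14.2 to 21.4). Its 3 3′ UTR peaks reached 3376.1. ANKRD1, an ankyrin-repeat protein induced by stretch and YAP signalling, had 1421.8 at 5 bp from the penultimate exon. TMED2, a p24 cargo receptor of early secretory vesicles, had 1344.2 at 113 bp from the penultimate exon. These 3 stood above the rest, and CANX alone held 6.92% of the summed score of all 446 peaks.

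BCL2L2-PABPN1 followed with 861.9, but this is the readthrough of neighbouring genes and the same bases belong to PABPN1, so its host is uncertain. HNRNPL, a splicing regulator that binds CA repeats, had 832.3, and PDIA4, an ER disulfide isomerase, had 801.4, both beside the penultimate exon, and the HNRNPL centre lay on an exon of another HNRNPL transcript. CD44, the hyaluronan receptor, had 769.6 at 6 bp from a short last exon of 205 bp in the isoform that matched. TMX1, an ER membrane thioredoxin, had 700.9, and PCBP2, a poly(C)-binding protein, had 696.9. NUTF2, which carries Ran into the nucleus, had 684.7, also with its centre on an exon of another transcript of the gene. SFPQ, a splicing and paraspeckle protein, had 676.9 at 6 bp from the last exon, and CBFB, a subunit of core-binding factor, had 662.7 at 4 bp from it. In 9 of these 12 genes another peak of the gene scored higher; the exceptions were BCL2L2-PABPN1, CD44 and CBFB.

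**Figure D5:**
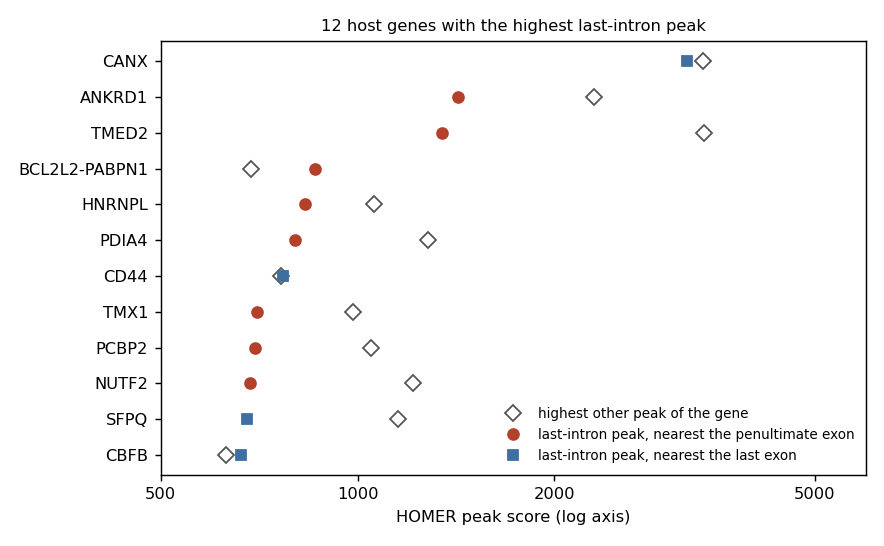
HOMER peak score on a log axis of the best last-intron peak (red circle where nearest the penultimate exon, blue square where nearest the last exon) and of the highest other peak (open diamond) of the 12 host genes with the highest last-intron score. CANX, CD44, SFPQ and CBFB had theirs at the last exon, and the diamond lay to the right in 9 of 12 genes.

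Among 3 gene lists, the host genes of last-intron peaks were counted beside the 11.95% of all host genes. Of 52 ER and early secretory genes, 25 had a peak and 6 had one in the last intron: CANX, TMED2, PDIA4, TMX1, LAPTM4A and SEC22B. LAPTM4A, with 644.6, was in the list although it is a late endosomal and lysosomal protein, and without it 5 genes remain. SEC22B, a vesicle SNARE, had 202.1. Of 80 RNA-binding and splicing genes, 30 had a peak and 6 had one in the last intron, HNRNPL, PCBP2 and SFPQ with the scores above, FUBP1 with 70.5, MBNL2 with 49.4 and HNRNPLL with 20.6. Of 35 HuR target genes, 17 had a peak and 3 had one in the last intron. These were CD44, ELAVL1 and XIAP, an inhibitor of caspases, which had only 30.8 at 142 bp from the penultimate exon. The counts of 3 and 6 are too small to set the lists apart from the other host genes. Best scores ran from 202.1 to 3188.9 in the ER list, and also in its 5 genes without LAPTM4A, from 20.6 to 832.3 in the RNA-binding list and from 30.8 to 769.6 in the HuR target list.

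ELAVL1, which encodes HuR, carried 11 peaks. The last-intron peak, with its centre 33 bp past exon 5, scored 623.3. A plus-strand peak of 597.8 lay over that exon, and the 3′ UTR peaks scored 812.0 and 799.5. The peaks of introns 1 to 4 ran from 66.6 to 472.8, all lower than the last-intron peak.

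Most host genes, 356 of 396, had 1 last-intron peak, 36 had 2 and 4 had more. CXADR, the coxsackievirus and adenovirus receptor, had 5, scoring 24.5 to 38.4. They lay in introns that end short isoforms and are internal in the canonical transcript, and all 5 were within 97 bp of an exon of some CXADR transcript. ZNF236-DT, a long non-coding RNA, had 4 (13.5 to 31.1), THOC2, a subunit of the TREX export complex, had 3 (36.5 to 41.4) and the antisense RNA TTC28-AS1 had 3 (25.7 to 26.4). All the THOC2 and TTC28-AS1 centres lay on an exon of another transcript of the host gene. The THOC2 centres scoring 41.4 and 38.4 also lay on FERP1, a processed pseudogene, and the peak of 36.5 was in an L1 repeat. CBFB and LAPTM4A, the highest-scoring of those with 2, each had 1 peak at either end of the same intron: CBFB with 265.8 beside the penultimate exon and 662.7 beside the last, and LAPTM4A with 243.7 and 644.6.

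Host genes of last-intron peaks had a median of 6 peaks each, against 2 over all host genes. Of the 396, 283 also had an internal-intron peak and 194 (49.0%, 44.1 to 53.9) a 3′ UTR peak, while 35.2% (33.5 to 37.0) of the 2917 other host genes had a 3′ UTR peak. The difference in the number of peaks per gene moved with this share, and its part was not tested. In 41 genes all peaks were in the last intron. In 118 of 396 (29.8%) the highest peak of the gene was a last-intron peak, and these include the 41, where no other outcome was possible.

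Away from the exons, 30 of 432 peaks (6.94%, 4.91 to 9.74) were centred over 1000 bp from an exon of the matched transcript, beside 79.8% of the bases of these introns. In internal introns the share was 2.29% and in first introns 10.5%. Of the 30, 18 were within 1 peak length of an exon of another transcript of the host gene, 3 near an exon of another gene, and 9 over 1000 bp from any annotated exon. Their scores were low, with a median of 18.7 and a highest of 79 in ATP13A3. The 5 highest peaks over 1000 bp from any exon of the host were in ZNF236-DT with 31.1 and 26.7, both in Alu repeats, P4HA2-AS1 with 20.3, over an exon of P4HA2, and CYSTM1 with 17.1 and 16.4, over a long non-coding RNA.

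Windows of last-intron peaks, exon bases included, held the U-rich and AU-rich motifs about as often as windows of the same introns. The intervals overlapped. On the strand of the gene, TTTTT was in 296 of 432 windows, or 68.5% (64.0 to 72.7), and ATTTA in 232, or 53.7% (49.0 to 58.4), where matches may overlap each other. Windows of 347 bp laid end to end over the same introns held TTTTT in 68.1% (67.2 to 69.0) and ATTTA in 52.0% (51.0 to 52.9) of 9756, and all 13707 peaks whose host gene was in GENCODE held them in 68.5% (67.7 to 69.3) and 50.6% (49.7 to 51.4). These sets of windows are unlike, since a last-intron peak window had a median of only 261 intronic bases and most windows reached into an exon. The intronic bases of last-intron peaks alone, on shorter stretches, held TTTTT in 65.0% (60.4 to 69.4) and ATTTA in 49.5% (44.8 to 54.2). Over whole windows, internal-intron peaks held TTTTT more often, in 76.2% (75.2 to 77.2), and first-intron peaks less often, in 52.2% (48.9 to 55.5). G and C made up a median of 38.3% of last-intron windows, 36.3% of internal and 48.7% of first-intron windows, and the part of base composition in these shares was not tested. Beside the last exon TTTTT was in 72.4% (63.2 to 80.0) of windows and beside the penultimate exon in 67.3% (62.0 to 72.1), with overlapping intervals. A match is a string of letters in the window, counted on the strand of the gene only, and not a binding site.

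The gene column of the list, which gives the gene of the nearest transcription start, named another gene than the host in 221 of 443 last-intron peaks (49.9%, 45.3 to 54.5). It did so in 41.0% (39.9 to 42.1) of internal and 8.91% (7.20 to 11.0) of first-intron peaks. The CANX peak stands there under MAML1, the HNRNPL peak under ECH1 and the PDIA4 peak under GHET1.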

How the data were processed

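RIP-seq libraries of 2 HuR and 2 IgG immunoprecipitates of MDA-MB-231 cells, grouped by the antibody in the labels, were made without poly(A) selection. Per the submitters' processing notes and the methods, reads were aligned to hg38 with STAR and peaks called with HOMER, and peaks with altered transcript abundance were kept. The threshold, versions, settings, tag shift and any pooling are not given in the sources used here, and a tag shift would move every peak. The methods name ANNOVAR for annotation, while the file header holds a HOMER command. The deposited list gives a peak score, a focus ratio (a deposited fraction that was not analysed here) and a distance to the nearest start site.

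Intron number and host gene came from the deposited annotation, with names from the RefSeq gene table (GRCh38.p14). Of the 446 peaks, 416 were placed in a GENCODE 44 transcript with the same intron number and 16 in one where that intron is last under another number, and 14 were not placed. The canonical transcript was the MANE Select or, failing that, the Ensembl canonical one. The interval of a median is the distribution-free binomial one. Scores under 100 were taken to lie on whole steps within 0.06. Python 3.11.15, pandas 2.3.3, scipy 1.17.1 and pysam 0.24.0 were used, and the placement of peaks was tested on simulated transcripts. The genes named were the 12 hosts with the highest peak, the 6 with the most peaks (ties by score), the 5 highest peaks over 1000 bp from any host exon and members of 3 lists; ELAVL1 was described in full, and ATP13A3 was named, after its values were seen. The members and lists were chosen with earlier results of these data known. The alternatives tried are given in the closing section.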

Additional observations from a re-analysis of the deposited data

How the results depend on the processing

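No paired analysis was possible because no value in the list belongs to a single library. Of 50 alternatives over 15 results, 30 stayed within 1.5 times of a count or inside the 95% interval of a share or median, and 20 moved out of it. Keeping only scores at or above the list median left 223 peaks in 202 host genes with a median score of 93.7 by construction, put 96.8% within 1 peak length of an exon instead of 93.0% (canonical transcript), and lowered the share nearest the penultimate exon to 69.3% and that on the gene strand to 69.7%, beside 57.1% and 57.2% of internal-intron peaks under the same limit. Within 173 bp of an exon lay 84.0%, and 96.8% were within 1 peak length of an exon of any transcript of the host. At any distance the nearest exon of the canonical transcript was behind the peak in 96.5%, where the matched transcript gave 95.6%. With an overlap of 50 bp, 51.4% touched only the penultimate exon and 27.8% neither; an overlap of at least 174 bp leaves 0% for the penultimate, the last or both exons and 100% for neither, because the centre is intronic. Moving peaks 173 bp back gave 70.1% for the penultimate exon only, 0% for both and 8.33% for neither, and left 18.3% of centres in the intron. A run of 7 T was in 24.8% and TATTTAT in 9.26% of windows. With intron order from the canonical transcript there were 413 last-intron peaks, 372 of them among the 446. The alternatives for the side and strand shares, and the matched exons for the distance, were chosen after seeing the data. Scores of low peaks rest on few steps, and without values per sample neither replicate error nor enrichment over IgG can be given.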

Other observations

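For 53 of the 446 peaks the canonical transcript held the centre in a first or internal intron, while the annotated transcript had it in its last intron. Whether the annotated transcript was shorter or ended earlier was not compared. The 51 of these peaks that were placed belonged to 40 host genes, CXADR among them, and had a median score of 26.7. The exon after the intron had a median length of 1092 bp in the matched isoform, and 37 of the 51 peaks were nearest the exon before the intron. A further 41 peaks were in the last intron of the canonical transcript but carried another annotation in the list.

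Repeats were annotated at 66 of 446 last-intron peaks, or 14.8% (Wilson 95% interval 11.8 to 18.4), beside 12.3% (11.6 to 13.0) of internal-intron and 10.4% (8.58 to 12.6) of first-intron peaks. Among the 30 peaks over 1000 bp from the matched exons there were 10.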
